A study of Mus musculus with 14 samples.

Results

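Genes for redox defence, iron handling and the phagocyte NADPH oxidase were followed in cortical microglia, the resident macrophages of the brain, after a short stroke. The set was a list of 37 gene names, chosen with earlier results of these data known. A gene was measured where the array held a row annotated to that symbol alone, and of several such rows the one with the highest mean over all arrays was used. This gave 34 of the 37, out of 19938 genes measured in the same way. Prdx5, Prdx6 and Slc11a1 had no such row and are not described.

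Oxidants are removed by thioredoxin and glutathione systems. Many of their genes are switched on by the transcription factor NRF2 (gene Nfe2l2), which KEAP1 marks for degradation until oxidants or electrophiles modify KEAP1. NRF2 pairs with a small MAF protein and binds a short DNA sequence, the antioxidant response element. Free iron turns peroxide into more damaging radicals, so cells take it up through the transferrin receptor, store it in ferritin and export it through ferroportin. In microglia and other phagocytes the NADPH oxidase NOX2 makes superoxide on purpose, from a membrane core and cytosolic subunits that join it on activation.

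The microglia were sorted from the cortex on the operated side. The mice were male C57BL/6J, 12 to 14 weeks old. The middle cerebral artery was closed for 15 min with a filament and opened again for 72 h (ischaemia and reperfusion, I/R), or a sham operation was done, all under isoflurane. Each operation was done in wild-type mice and in TLR4-/- mice, which lack Toll-like receptor 4, a sensor of bacterial lipopolysaccharide and of products of damaged tissue. The 4 groups were wild-type sham (arrays A to D, n = 4), wild-type I/R (A to D, n = 4), TLR4-/- sham (A, B and D, n = 3) and TLR4-/- I/R (B, C and D, n = 3). The sources used here give neither the gates of the sort nor the way the TLR4-/- allele was built. Sample titles call the I/R arrays IPC without saying what it stands for. Nothing in the labels ties an array to an animal of its own, so p-values here reflect only how far these arrays spread, some of which may be technical.

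Values are log2 signals of Affymetrix Mouse Gene 1.0 ST arrays, on which a difference of 1 is a doubling. A level is compared only with the same gene's level in other arrays. Olfactory receptor genes, 1027 of them, stood in for background, and their values had a median of 2.93 and a 95th percentile of 4.73. Of the 34 genes, 31 had a mean above it, and Nqo1, Slc7a11 and Nos2 did not. Precision is limited by the number of arrays, as there is no read depth. Tlr4 gave signal in both genotypes, at 8.14 to 8.92 in wild type and 7.62 to 8.47 in TLR4-/-. Which part of the gene is deleted is not given, so this row does not check the labels.

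Arrays within a group correlated at r between 0.9814 and 0.9934 across genes. As a description, wild-type sham array C was closer to TLR4-/- sham (0.9872 to 0.9916) than to its own group (0.9814 to 0.9865). TLR4-/- I/R array D was closer to wild-type I/R (0.9901 to 0.9915) than to its own (0.9851 to 0.9898). Other arrays leaned the same way with overlapping ranges. These were wild-type sham D (0.9883 to 0.9909 against 0.9865 to 0.9889) and TLR4-/- I/R B (0.9863 to 0.9879 against 0.9851 to 0.9865) and C (0.9875 to 0.9902 against 0.9865 to 0.9898). Arrays of the same operation were thus not cleanly apart by genotype. Over the 34 genes, wild-type sham array C was the lowest of its 4 arrays for 20 genes. TLR4-/- sham array A was the lowest of its 3 for 21, and TLR4-/- I/R array B for 17. TLR4-/- I/R array D was the lowest for 13 and the highest for 13. Such counts are not given for all genes. Because of the correlations, counts of called genes after I/R are also given without wild-type sham C and TLR4-/- I/R D. This was done for the whole set and for the marker and pathway lists, as an alternative chosen after the data were seen.

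The 9 microglial markers measured (Tmem119, P2ry12, Cx3cr1 and others) lay well above background in all arrays, with list means of 10.9 to 11.4. After I/R 7 of them fell in wild type (median change -0.42) and 5 in TLR4-/- (median -0.38). Genes were called at a limma, Benjamini-Hochberg adjusted p under 0.05, and 9.78% of all genes were called in wild type and 8.17% in TLR4-/-. Of 11 monocyte markers measured, 6 rose in wild type and 5 in TLR4-/-. Chil3, among the 6, had a mean over all arrays that was not above background. The mean of the monocyte list lay between 4.88 and 4.95 on wild-type sham arrays and between 6.19 and 6.71 on wild-type I/R arrays. In TLR4-/- it lay between 4.58 and 4.76 on sham and between 5.99 and 6.26 on I/R arrays. Fn1 rose most on this list, by 5.53 in wild type and 5.40 in TLR4-/-, and so weighs most in these means. Ccr2, the chemokine receptor that defines inflammatory monocytes, was not called (0.41 in wild type, limma adjusted p = 0.0763, and -0.22 in TLR4-/-, adjusted p = 0.501). Of 13 neutrophil markers, 11 had a mean over all arrays that was not above background, S100a8, S100a9 and Ly6g among them. The highest wild-type I/R values of S100a9 and S100a8 were nevertheless 7.06 and 4.94. Wild-type I/R array C had the highest list mean of its group for neutrophils (4.80), monocytes (6.71) and border-associated macrophages (7.68). Of 10 markers of border-associated macrophages, 2 rose in wild type (20%) and 1 in TLR4-/- (10%), beside 9.78% and 8.17% of all genes. Without wild-type sham C and TLR4-/- I/R D, 3 microglial markers rather than 5 fell in TLR4-/-, and the other counts of microglial, monocyte and border-associated markers were the same. The part of these shifts in the changes described next was not tested, and in sorted cells measured in bulk a change in the mix of cells and a change in RNA per cell cannot be told apart.

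**Figure D1:**
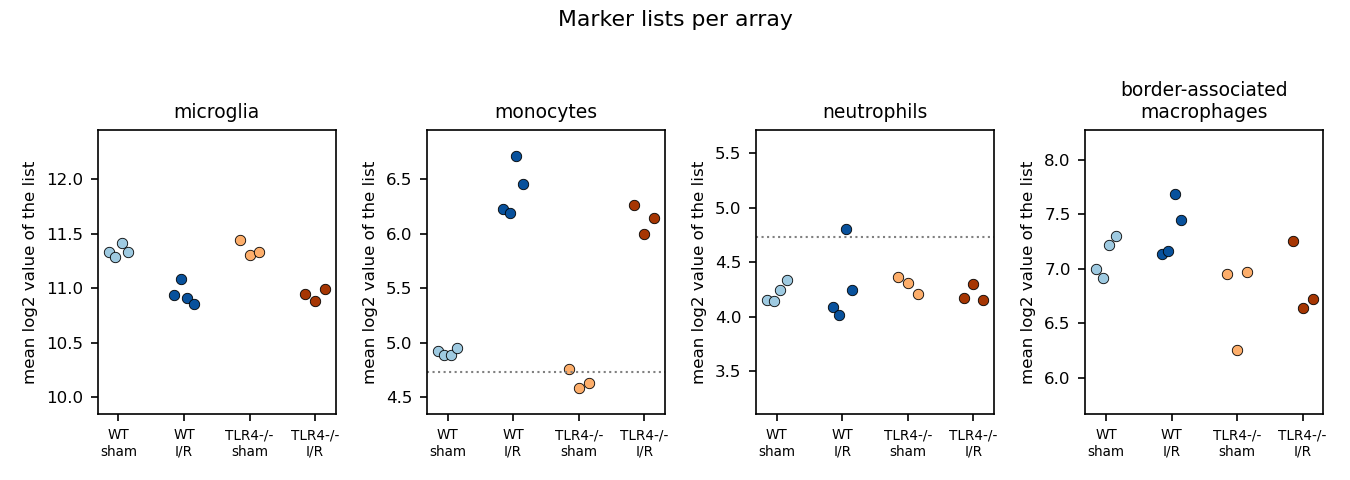
Mean log2 value of 4 marker lists on each array (points), by group, with the dotted line at the background percentile of 4.73. The microglial list lies at 10.9 to 11.4 everywhere, the monocyte list is above 5.9 on every I/R array and below 5.0 on every sham array, and the neutrophil list stays below the line except on 1 wild-type I/R array.

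Before the values, the sequences that link these genes are shown. RefSeq promoter windows of assembly GRCm38.p6, each 300 bases long from 250 before to 50 after a transcript start, were found for 27 of the 37 listed genes. They were searched on both strands for TGACNNNGC, the core of the antioxidant response element, which 7 of the 27 genes held (25.9%), against 14.0% of all 27025 genes with a window. The 7 are Nfe2l2, Gclm, Txnrd1, Srxn1, Prdx1, Sod1 and Mt2. No window was found for Hmox1, Gclc, Gsr, Gsta4, Slc40a1, Rac2, Prdx6, Ncf4, Slc11a2 and Nos2, so these were not searched. Hmox1, Gclc, Gsr, Gsta4, Slc40a1 and Rac2 are among the genes called in wild type below. Each match is printed in capitals with its flanks, 5′ to 3′ on the strand of the gene, so that a match on the other strand appears as its reverse complement. The Srxn1 match lies after the transcript start and the others before it.
Nfe2l2, chr2:75704885-75704913, minus strand: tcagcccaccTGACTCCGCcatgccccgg
Mt2, chr8:94172529-94172557, plus strand: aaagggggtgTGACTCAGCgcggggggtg
Prdx1, chr4:116685456-116685484, plus strand: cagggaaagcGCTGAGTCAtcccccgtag
Gclm, chr3:122245413-122245441, plus strand: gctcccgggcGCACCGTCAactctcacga
Txnrd1, chr10:82859104-82859132, plus strand: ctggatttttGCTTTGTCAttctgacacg
Srxn1, chr2:152105542-152105570, plus strand: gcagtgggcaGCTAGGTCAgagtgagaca
Sod1, chr16:90220696-90220724, plus strand: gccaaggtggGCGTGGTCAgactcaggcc
Of these 7 genes Mt2 and Prdx1 rose in both genotypes after I/R, and the other five were not called in either (limma, Benjamini-Hochberg adjusted p under 0.05), where 9.78% of all genes were called in wild type and 8.17% in TLR4-/-.

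Mt2 encodes a metallothionein, a small cysteine-rich protein that binds zinc and copper and takes up oxidants, and together with Cybb it changed most among the 34 genes. Metallothionein genes are driven by the zinc sensor MTF1 through metal response elements. The 250 bases before the Mt2 start hold 3 matches to their core, TGCACNC or TGCGCNC on either strand, shown in capitals. None of them overlaps the antioxidant response element core at position -79.
Mt2, chr8:94172368-94172617, plus strand: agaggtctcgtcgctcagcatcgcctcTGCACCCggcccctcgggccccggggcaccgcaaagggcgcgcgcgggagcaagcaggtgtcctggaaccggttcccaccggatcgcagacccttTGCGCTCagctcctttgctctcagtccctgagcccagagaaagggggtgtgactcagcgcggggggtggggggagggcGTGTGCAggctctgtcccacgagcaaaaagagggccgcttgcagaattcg
A metal response element core stood in the windows of 7 of the 27 genes (25.9%), Mt1 and Mt2 among them, against 28.2% of all genes with a window. A match is a string of letters in a window and was not measured as a bound site.

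The first question was which of these genes changed after I/R in wild-type microglia. Of the 34, 9 rose and 2 fell (limma, Benjamini-Hochberg adjusted p under 0.05 over all 19938 genes). Those that rose were the oxidase genes Cybb and Rac2, the metallothioneins Mt1 and Mt2, and the antioxidant genes Hmox1, Gsr, Gsta4, Txn1 and Prdx1. Gclc and Slc40a1 fell. The 11 called genes are 32.4% of the set, where 9.78% of all genes were called (6.15% higher and 3.63% lower). Because the set was chosen with earlier results known, such shares are a description and not a test of the set. Among genes above background the shares were 35.5% of 31 and 16.5% of 12261. The median change of the set was 0.18, against -0.06 over all genes. Without wild-type sham C and TLR4-/- I/R D, 7 rose and 2 fell, where 8.30% of all genes were called, and Mt1 and Rac2 were no longer among those that rose. Without I/R array C 6 rose and 1 fell. With each array centred on its own median, 76.8% of all called genes were higher rather than 62.9%, and Gclc and Rac2 were no longer called.

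In TLR4-/- microglia 6 of the 34 rose and 1 fell. Hmox1, Txn1, Prdx1, Mt1, Mt2 and Cybb rose and Slc40a1 fell, and all 7 were also called in the same direction in wild type. They are 20.6% of the set, where 8.17% of all genes were called (5.04% higher and 3.13% lower). Among genes above background the shares were 22.6% and 14.5%. The median change was 0.27, against -0.03 over all genes. Without wild-type sham C and TLR4-/- I/R D, 5 rose, Hmox1 no longer among them, and 1 fell, which was Slc7a11 (-0.82, adjusted p = 0.0448) in place of Slc40a1, where 8.00% of all genes were called. With single arrays left out the number that rose ranged from 3 to 8. It was 3 (Cybb, Mt2 and Txn1) without sham array A and 4 without I/R array C or D. No gene fell without I/R array B, without any one sham array, or with arrays centred on their medians.

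**Figure D2:**
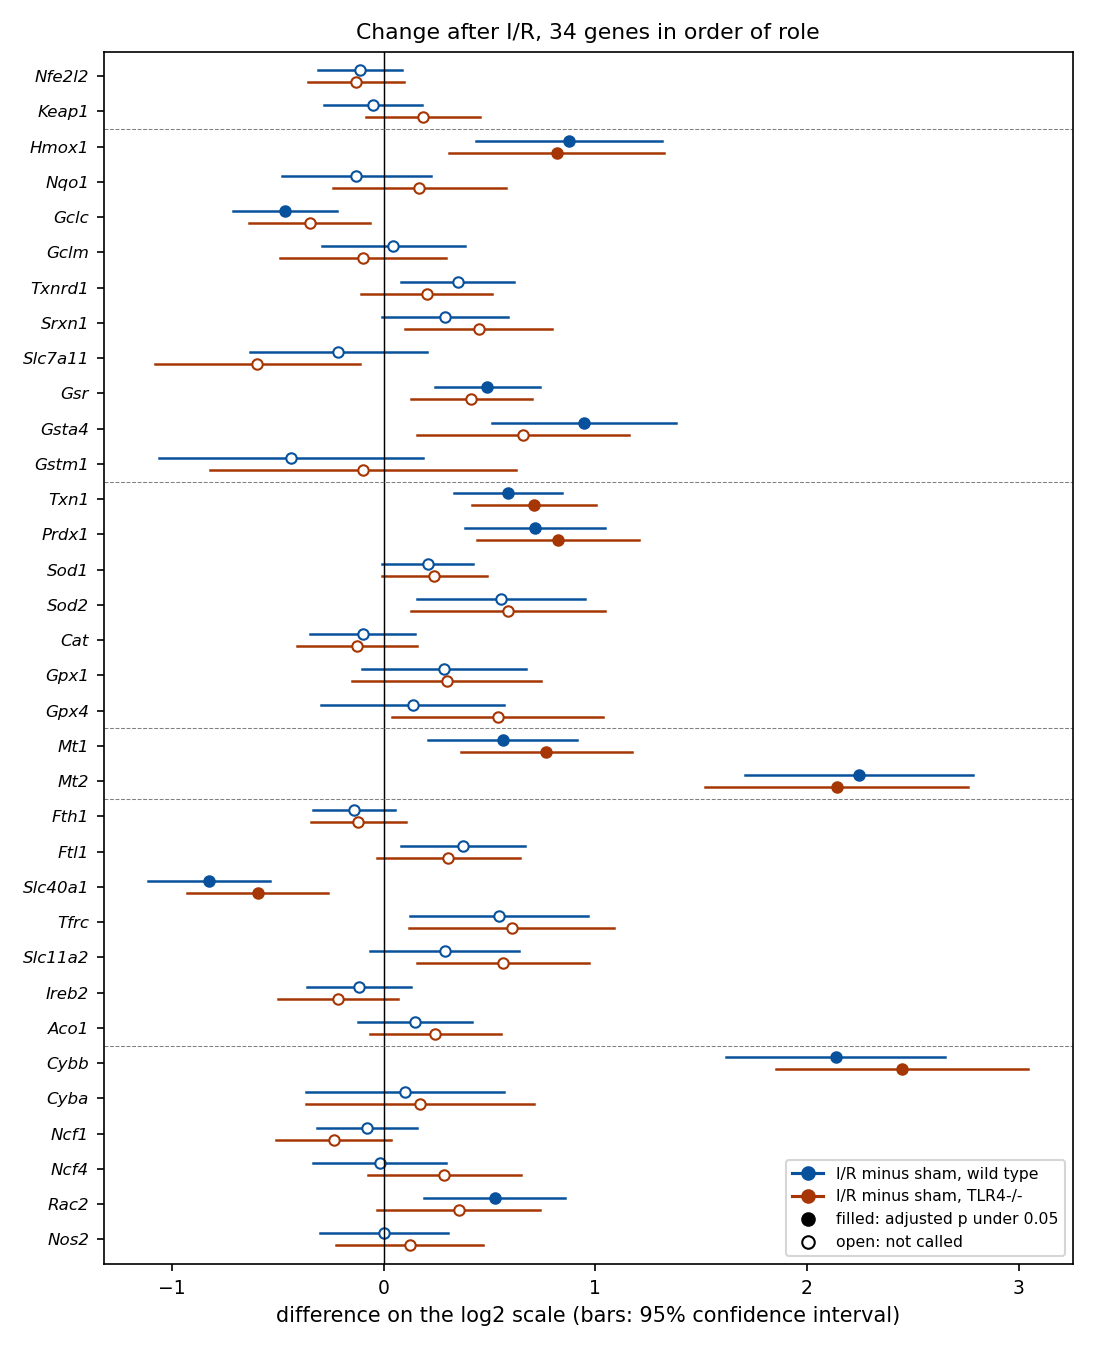
Change after I/R (I/R minus sham, log2 scale) of the 34 genes in order of role, in wild type and TLR4-/-, with 95% confidence intervals. Filled points passed an adjusted p under 0.05. Cybb and Mt2 stand above 2 in both genotypes and Slc40a1 lies below 0 in both, while most other intervals reach or lie close to 0.

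The NADPH oxidase genes are taken first. Cybb encodes gp91phox, the catalytic membrane subunit of NOX2 that passes electrons from NADPH to oxygen. Its log2 values in wild type were 7.89, 6.91, 7.43 and 7.23 on sham arrays A to D and 9.10, 9.63, 9.80 and 9.46 on I/R arrays A to D. In TLR4-/- they were 7.09, 6.07 and 7.34 on sham arrays and 9.44, 9.28 and 9.12 on I/R arrays. Every I/R array lay above every sham array of both genotypes. The change was 2.14 ± 0.24 (SE, n = 4 against 4), a 4.40-fold rise, in wild type (limma adjusted p = 1.29e-05). In TLR4-/- it was 2.45 ± 0.28 (n = 3 against 3), or 5.46-fold (limma adjusted p = 2.09e-05). The call held under every alternative tried, single arrays left out included. Of the 11 monocyte markers, 6 rose on the same arrays in wild type. Among them were Fn1, which rose most (5.53), and Plac8, Ms4a4c and Cd44 (2.59, 2.66 and 1.59). The rest were not called, such as F13a1 (0.13), Vcan (0.23) and Treml4 (0.00). The part of monocytes in the rise of Cybb, which they also express, was not tested.

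Cyba, Ncf1 and Ncf4, which encode other oxidase subunits, were called in neither genotype. Cyba encodes p22phox, the other membrane subunit, and its change was 0.10 in wild type (95% interval -0.37 to 0.57) and 0.17 in TLR4-/- (-0.37 to 0.71). The TLR4-/- I/R arrays for Cyba were spread between 9.82 and 11.04, so this interval is wide. Ncf1 (p47phox, the organiser that is phosphorylated on activation) changed by -0.08 (-0.31 to 0.16) and -0.24 (-0.51 to 0.04). Ncf4 (p40phox) changed by -0.02 (-0.33 to 0.29) and 0.29 (-0.07 to 0.65). For each of them sham and I/R arrays overlapped in both.

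Rac2 encodes the small GTPase that completes the active oxidase in blood cells. Its values in wild type were 10.11, 10.01, 9.41 and 9.94 on sham arrays and 10.44, 10.45, 10.43 and 10.24 on I/R arrays, without overlap. In TLR4-/- they were 9.69, 9.89 and 10.06 on sham and 9.90, 10.30 and 10.51 on I/R arrays, which overlap. The change was 0.52 ± 0.16 in wild type (limma adjusted p = 0.0439) and 0.35 ± 0.18 in TLR4-/- (adjusted p = 0.296). The wild-type call was marginal. It was lost, at adjusted p between 0.0527 and 0.132, when any I/R array or any sham array but A was left out. Sham array C is the low value, and without it the change was 0.37 (adjusted p = 0.132).

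Nos2, the inducible nitric oxide synthase of activated macrophages, stayed near background. Its values were 4.85, 4.40, 4.24 and 4.83 on wild-type sham arrays, 4.52, 4.66, 4.74 and 4.42 on wild-type I/R arrays, 4.50, 4.75 and 4.62 on TLR4-/- sham arrays and 4.89, 4.81 and 4.54 on TLR4-/- I/R arrays. The groups overlapped, and the change was 0.00 in wild type (95% interval -0.30 to 0.30, limma adjusted p = 0.995) and 0.12 in TLR4-/- (-0.22 to 0.47, adjusted p = 0.760). A change of Nos2 below the background signal was not detectable.

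Both metallothioneins rose in both genotypes. Mt2, whose promoter is printed above, had values of 5.19, 5.50, 4.64 and 5.07 on wild-type sham arrays and 7.13, 6.86, 7.48 and 7.90 on wild-type I/R arrays. In TLR4-/- they were 4.25, 5.26 and 5.17 on sham and 6.61, 7.28 and 7.20 on I/R arrays. The I/R arrays lay more than 1 log2 unit above the sham arrays throughout, with 1 sham array of each genotype under the background percentile. The change was 2.24 ± 0.25 in wild type, 4.74-fold (limma adjusted p = 1.16e-05), and 2.14 ± 0.29 in TLR4-/-, 4.41-fold (adjusted p = 0.000139). Since the sham levels are near background, these folds are measured against background signal.

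Mt1, its neighbour with the same function, changed less. Its values were 8.74, 8.93, 8.18 and 9.05 on wild-type sham arrays and 9.24, 9.06, 9.37 and 9.49 on wild-type I/R arrays. In TLR4-/- they were 8.29, 8.64 and 8.72 on sham and 9.18, 9.35 and 9.43 on I/R arrays. The groups did not overlap, though by 0.01 only in wild type. The change was 0.56 ± 0.17 in wild type (limma adjusted p = 0.0404) and 0.77 ± 0.19 in TLR4-/- (adjusted p = 0.0188). The wild-type call was lost without sham array A or C, and when any I/R array but B was left out (adjusted p between 0.0641 and 0.131). It was also lost in a fit of the wild-type arrays alone (0.0738). The TLR4-/- call was lost without I/R array C or D or sham array A (0.0637 to 0.105).

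**Figure D3:**
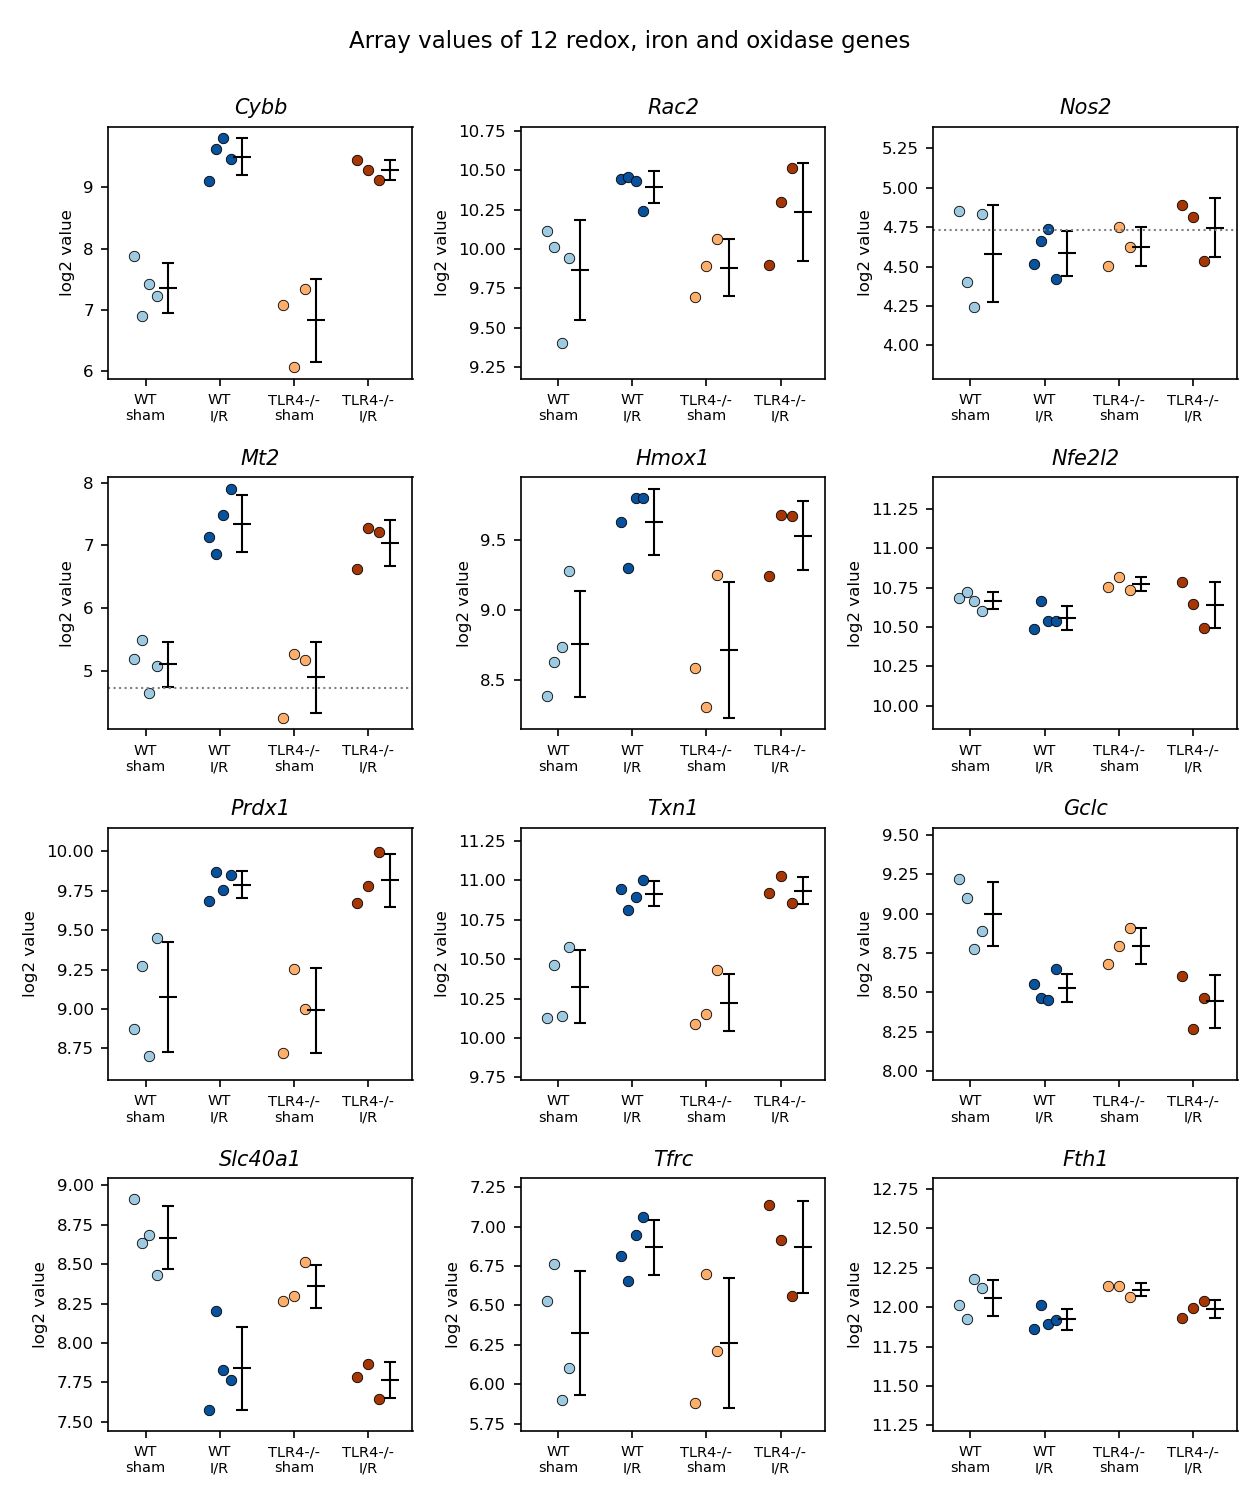
Log2 value of 12 genes on each array (points), with the group mean and SD (bars) beside them and the background percentile of 4.73 as a dotted line where it falls in the panel. I/R and sham points are apart for Cybb, Mt2, Prdx1, Txn1 and Slc40a1 in both genotypes, and they overlap for Nfe2l2 and Tfrc.

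The transcripts of the regulator pair were not called. Nfe2l2 had values of 10.69, 10.72, 10.66 and 10.60 on wild-type sham arrays, 10.49, 10.66, 10.54 and 10.54 on wild-type I/R arrays, 10.76, 10.82 and 10.74 on TLR4-/- sham arrays and 10.79, 10.64 and 10.49 on TLR4-/- I/R arrays. The ranges overlapped in both genotypes. The change was -0.11 (95% interval -0.31 to 0.09, limma adjusted p = 0.527) in wild type and -0.13 (-0.36 to 0.10, adjusted p = 0.571) in TLR4-/-. Keap1 changed by -0.05 (-0.28 to 0.18) and 0.19 (-0.08 to 0.46), neither called. NRF2 is controlled mainly through the stability of the protein, which an array does not measure.

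Among the 10 NRF2 targets and glutathione genes, 3 rose and 1 fell in wild type (40% called, beside 9.78% of all genes). In TLR4-/- 1 rose (10%, beside 8.17% of all genes). Hmox1, haem oxygenase 1, breaks haem into biliverdin, carbon monoxide and iron. Its values were 8.38, 8.63, 8.73 and 9.28 on wild-type sham arrays and 9.63, 9.30, 9.80 and 9.80 on wild-type I/R arrays. In TLR4-/- they were 8.59, 8.31 and 9.25 on sham and 9.24, 9.68 and 9.67 on I/R arrays. Array D was the highest sham array in both genotypes, and in TLR4-/- it lay just above the lowest I/R array. The change was 0.87 ± 0.21 in wild type (limma adjusted p = 0.0116) and 0.82 ± 0.24 in TLR4-/- (adjusted p = 0.0449). The TLR4-/- call was lost without I/R array C or D or sham array A or B (adjusted p between 0.133 and 0.194), and in a fit of the TLR4-/- arrays alone (0.0550).

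Gsr and Gsta4 rose in wild type. Gsr, glutathione reductase, regenerates reduced glutathione with NADPH. It stood at 6.25, 6.36, 6.32 and 6.22 on wild-type sham arrays against 6.55, 6.70, 6.97 and 6.88 on I/R arrays, and at 6.24, 6.61 and 6.45 against 6.96, 6.91 and 6.68 in TLR4-/-. The groups did not overlap in either genotype. The change was 0.49 ± 0.12 (limma adjusted p = 0.0117) in wild type and 0.42 ± 0.13 (adjusted p = 0.0713) in TLR4-/-. Without wild-type I/R array C the wild-type value was 0.43 (adjusted p = 0.0501).

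Gsta4 encodes a glutathione transferase that clears 4-hydroxynonenal, a product of lipid peroxidation. It stood at 5.07, 4.19, 4.40 and 5.22 on wild-type sham arrays against 5.73, 5.64, 5.58 and 5.73 on I/R arrays. In TLR4-/- it stood at 5.01, 5.16 and 4.64 against 5.93, 5.24 and 5.61. The groups were again apart in both genotypes, the wild-type sham mean of 4.72 being at the background percentile. The change was 0.95 ± 0.21 (limma adjusted p = 0.00626) in wild type and 0.66 ± 0.24 (adjusted p = 0.110) in TLR4-/-.

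Gclc, the catalytic subunit of glutamate-cysteine ligase and so of the first step of glutathione synthesis, was lower after I/R. It stood at 9.22, 9.10, 8.77 and 8.89 on wild-type sham arrays against 8.55, 8.46, 8.45 and 8.65 on I/R arrays, and at 8.68, 8.80 and 8.91 against 8.60, 8.27 and 8.46 in TLR4-/-. The I/R arrays lay below the sham arrays in both genotypes. The change was -0.47 ± 0.12 (limma adjusted p = 0.0162) in wild type and -0.35 ± 0.13 (adjusted p = 0.139) in TLR4-/-. The wild-type call was lost without I/R array C (adjusted p = 0.0532) and with each array centred on its median (0.0723). The fall was about as large as the median fall of the microglial markers given above, whose part in it was not tested. Its partner Gclm, the modifier subunit of the same enzyme, changed by 0.05 (95% interval -0.29 to 0.39) in wild type and -0.10 (-0.49 to 0.29) in TLR4-/-.

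The other targets were not called in either genotype. Nqo1, a quinone reductase and the usual reporter of NRF2 activity, was under background on every array. Its values were 3.48, 3.22, 3.33 and 3.65 on wild-type sham, 3.42, 3.35, 3.42 and 2.99 on wild-type I/R, 3.31, 3.46 and 3.98 on TLR4-/- sham and 3.84, 4.03 and 3.39 on TLR4-/- I/R arrays. These overlap, and the change was -0.13 (limma adjusted p = 0.704) in wild type and 0.17 (adjusted p = 0.712) in TLR4-/-. Slc7a11, the cystine importer, was likewise not above background on average, and its change was -0.21 and -0.60. Without TLR4-/- I/R array D the latter was -0.82 and was called (adjusted p = 0.0474). Txnrd1, thioredoxin reductase, changed by 0.35 (95% interval 0.08 to 0.62, adjusted p = 0.0974) and 0.20, and was called in wild type without sham array D (0.46, adjusted p = 0.0229). Srxn1, sulfiredoxin, which repairs overoxidised peroxiredoxins, changed by 0.29 and by 0.45 (0.10 to 0.79, adjusted p = 0.114), and was called in wild type without I/R array B (0.46, adjusted p = 0.00999). Gstm1, a glutathione transferase, varied widely between arrays of a group (6.34 to 7.79 in wild-type sham), with changes of -0.44 and -0.10.

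Of the 7 measured genes for thioredoxin, peroxide and superoxide removal, Txn1 and Prdx1 rose in both genotypes. They are 28.6% of the 7, beside 9.78% of all genes called in wild type and 8.17% in TLR4-/-. Txn1, thioredoxin, hands electrons to peroxiredoxins. It stood at 10.13, 10.46, 10.14 and 10.58 on wild-type sham arrays against 10.95, 10.81, 10.90 and 11.001 on I/R arrays, and at 10.09, 10.15 and 10.43 against 10.92, 11.02 and 10.86 in TLR4-/-. The change was 0.59 ± 0.12 (limma adjusted p = 0.00394) and 0.71 ± 0.14 (adjusted p = 0.00355). No I/R array reached down to a sham array, and both calls held under every alternative tried.

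Prdx1, a peroxiredoxin that reduces peroxide with electrons from thioredoxin, stood at 8.87, 9.27, 8.70 and 9.45 on wild-type sham arrays against 9.69, 9.87, 9.75 and 9.85 on I/R arrays. In TLR4-/- it stood at 8.72, 9.26 and 9.001 against 9.67, 9.78 and 9.998. The groups did not overlap. The change was 0.71 ± 0.16 (limma adjusted p = 0.00662) and 0.82 ± 0.18 (adjusted p = 0.00807), and without TLR4-/- sham array A the latter was 0.69 (adjusted p = 0.0556). A further array row for Prdx1 gave 0.61 (adjusted p = 0.0130) and 0.93 (adjusted p = 0.00211). Prdx1, Txn1, Gpx4 and both ferritin genes have near-identical copies in the genome, so their rows may hold signal from them.

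The superoxide dismutases Sod1 (cytosolic) and Sod2 (mitochondrial) had changes above 0 that were not called in either genotype. Sod2 changed by 0.56 (95% interval 0.16 to 0.95, limma adjusted p = 0.0766) in wild type and 0.59 (0.13 to 1.05, adjusted p = 0.121) in TLR4-/-, and Sod1 by 0.21 and 0.24. For Sod2 the groups did not overlap, with 6.19 to 7.10 in wild-type sham, 7.23 to 7.51 in wild-type I/R, 6.24 to 7.10 in TLR4-/- sham and 7.15 to 7.24 in TLR4-/- I/R. Sod2 was called without wild-type sham array A (0.66, adjusted p = 0.0412) in wild type and without sham array D (0.84, adjusted p = 0.0240) in TLR4-/-. Cat, catalase, changed by -0.10 and -0.13. The glutathione peroxidases changed by 0.28 and 0.30 (Gpx1, which reduces soluble peroxides) and by 0.14 and 0.54 (Gpx4, which reduces lipid peroxides in membranes), none of them called. A further row for Gpx4 gave 0.18 and 0.56.

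In iron handling, 1 gene of 7 (14.3%) was called in each genotype, beside 9.78% of all genes in wild type and 8.17% in TLR4-/-. Slc40a1 encodes ferroportin, the only known exporter of iron from cells. It stood at 8.92, 8.64, 8.68 and 8.43 on wild-type sham arrays against 7.57, 8.20, 7.83 and 7.76 on I/R arrays, and at 8.26, 8.30 and 8.52 against 7.79, 7.87 and 7.64 in TLR4-/-. Every I/R array of a genotype lay below every sham array. The change was -0.83 ± 0.14, a 1.77-fold fall, in wild type (limma adjusted p = 0.000619) and -0.59 ± 0.16, 1.51-fold, in TLR4-/- (adjusted p = 0.0266). The wild-type call held under every alternative. The TLR4-/- call was lost without any of its sham arrays and without I/R arrays B or D (adjusted p between 0.0530 and 0.105), with arrays centred (0.0642), and without wild-type sham C and TLR4-/- I/R D together (0.0928). Sall1, the microglial marker that fell most in wild type, went from 10.41 to 9.77, and whether a change of cell mix has a part in the fall of Slc40a1 was not tested.

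Ferritin did not show a change past the threshold in either genotype. Fth1, the heavy chain that oxidises and stores iron, stood at 12.01, 11.92, 12.18 and 12.12 on wild-type sham arrays against 11.86, 12.02, 11.89 and 11.92 on I/R arrays, and at 12.13, 12.14 and 12.06 against 11.93, 12.00 and 12.04 in TLR4-/-. Its change was -0.14 (95% interval -0.33 to 0.06, limma adjusted p = 0.407) and -0.12 (-0.34 to 0.10, adjusted p = 0.601). The intervals leave room only for small changes. Ftl1, the light chain, changed by 0.37 (0.08 to 0.67, adjusted p = 0.107) and 0.31 (-0.03 to 0.64, adjusted p = 0.306), from the row that names it alone. It was called in wild type without sham array D (0.49, adjusted p = 0.0303).

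Genes of iron uptake and sensing were not called in either genotype. Tfrc, the transferrin receptor, changed by 0.54 (95% interval 0.13 to 0.96, limma adjusted p = 0.101) and 0.60 (0.12 to 1.09, adjusted p = 0.131), with overlapping arrays. Without sham array B it was called in wild type (0.69, adjusted p = 0.0404) and in TLR4-/- (0.82, adjusted p = 0.0481). Slc11a2, the transporter DMT1 that moves iron out of endosomes, changed by 0.29 and 0.56 (0.16 to 0.97, adjusted p = 0.0865). The TLR4-/- change was called without sham array D (0.73, adjusted p = 0.0384) and with array weights (0.68, adjusted p = 0.0344). The iron regulatory proteins, which bind ferritin, transferrin receptor and ferroportin mRNAs when iron is scarce, changed by -0.12 and -0.22 (Ireb2) and by 0.15 and 0.24 (Aco1).

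The changes of the 2 genotypes were then averaged over all 14 arrays, a comparison added after the data were seen. Over both genotypes 14 of the 34 genes rose and 2 fell, or 47.1%, where 18.1% of all genes were called. Without wild-type sham C and TLR4-/- I/R D, 11 rose and 3 fell, where 15.7% of all genes were called. Besides the 11 genes called before, 5 were called, all higher. They were Srxn1 (0.37 ± 0.11, limma adjusted p = 0.0241), Sod2 (0.57 ± 0.14, adjusted p = 0.00973), Ftl1 (0.34 ± 0.11, adjusted p = 0.0333), Tfrc (0.57 ± 0.15, adjusted p = 0.0132) and Slc11a2 (0.43 ± 0.13, adjusted p = 0.0263). Sod2 and Tfrc were called whichever single array was left out. The Srxn1 call was lost without wild-type I/R array C or D, TLR4-/- I/R array C or TLR4-/- sham array B or D (adjusted p between 0.0510 and 0.0628). The Slc11a2 call was lost without wild-type I/R C, wild-type sham B, TLR4-/- I/R C or TLR4-/- sham A or B (0.0514 to 0.0791). The Ftl1 call was lost without 7 of the 14 arrays, which were I/R C and D of both genotypes, wild-type sham B and C and TLR4-/- sham A (0.0582 to 0.101). Rac2 was not called without TLR4-/- I/R D (0.0526) or sham A (0.0514). The transferrin receptor, which brings iron in, was higher on average, and ferroportin, which takes it out, was lower (-0.71 ± 0.10, adjusted p = 0.000108).

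The question the TLR4-/- arrays address is what the receptor contributes to these changes. Of the 34 genes, 30 had changes of the same sign in both genotypes. The share over all genes is not given here, and the 30 include Nos2 and Slc7a11, which were not above background. Gclc, Gsr, Gsta4 and Rac2 were called in wild type alone, which by itself does not show a difference between the genotypes. In the test of the difference of changes (wild-type change minus TLR4-/- change), limma called 0 of the 34 genes, and 0 had an unadjusted p under 0.05, with 0% of all genes called. For the 11 genes called after I/R the difference lay between -0.31 (Cybb) and 0.29 (Gsta4). The intervals are wide, with a median half-width of 0.51 and bounds from -1.10 (Cybb) to 0.95. They are not adjusted for the number of genes, as the calls are, so differences of that size or larger could be missed. For Cybb the interval was -1.10 to 0.48, and for Mt2 it was -0.72 to 0.92, around 0.10. For Slc40a1 it was -0.67 to 0.21, around -0.23.

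Between genotypes under the same operation no gene of the set was called either. After sham, limma called 0 of 34, where 0.00502% of all genes (1 gene) were called, and Slc7a11 alone had an unadjusted p under 0.05 (0.47 higher in TLR4-/-, near background, adjusted p = 0.920). After I/R it called 0 of 34, where 0.0201% of all genes (4) were called, and Nqo1 alone had an unadjusted p under 0.05 (0.46 higher in TLR4-/-, below background, adjusted p = 0.543). The Cybb level in TLR4-/- differed from wild type by -0.53 after sham (95% interval -1.09 to 0.03, adjusted p = 0.920) and -0.22 after I/R (-0.78 to 0.34, adjusted p = 0.816). Slc40a1 differed by -0.31 after sham (-0.62 to 0.00, adjusted p = 0.920) and by -0.08 after I/R (-0.39 to 0.24). Hmox1 differed by -0.04 and -0.10, and Mt2 by -0.21 and -0.31. For none of the 34 genes was any of these 3 tests called under an alternative run for it. Between genotypes no microglial, monocyte or border-associated marker was called either. All 10 border-associated markers were nevertheless lower in TLR4-/- after sham (median -0.32) and after I/R (median -0.45). Medians were -0.15 and -0.33 for the 11 monocyte markers, 4 of which were higher after I/R, and 0.03 and 0.01 for the 9 microglial markers. The part of these shifts in the differences of Cybb and Slc40a1 was not tested.

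**Figure D4:**
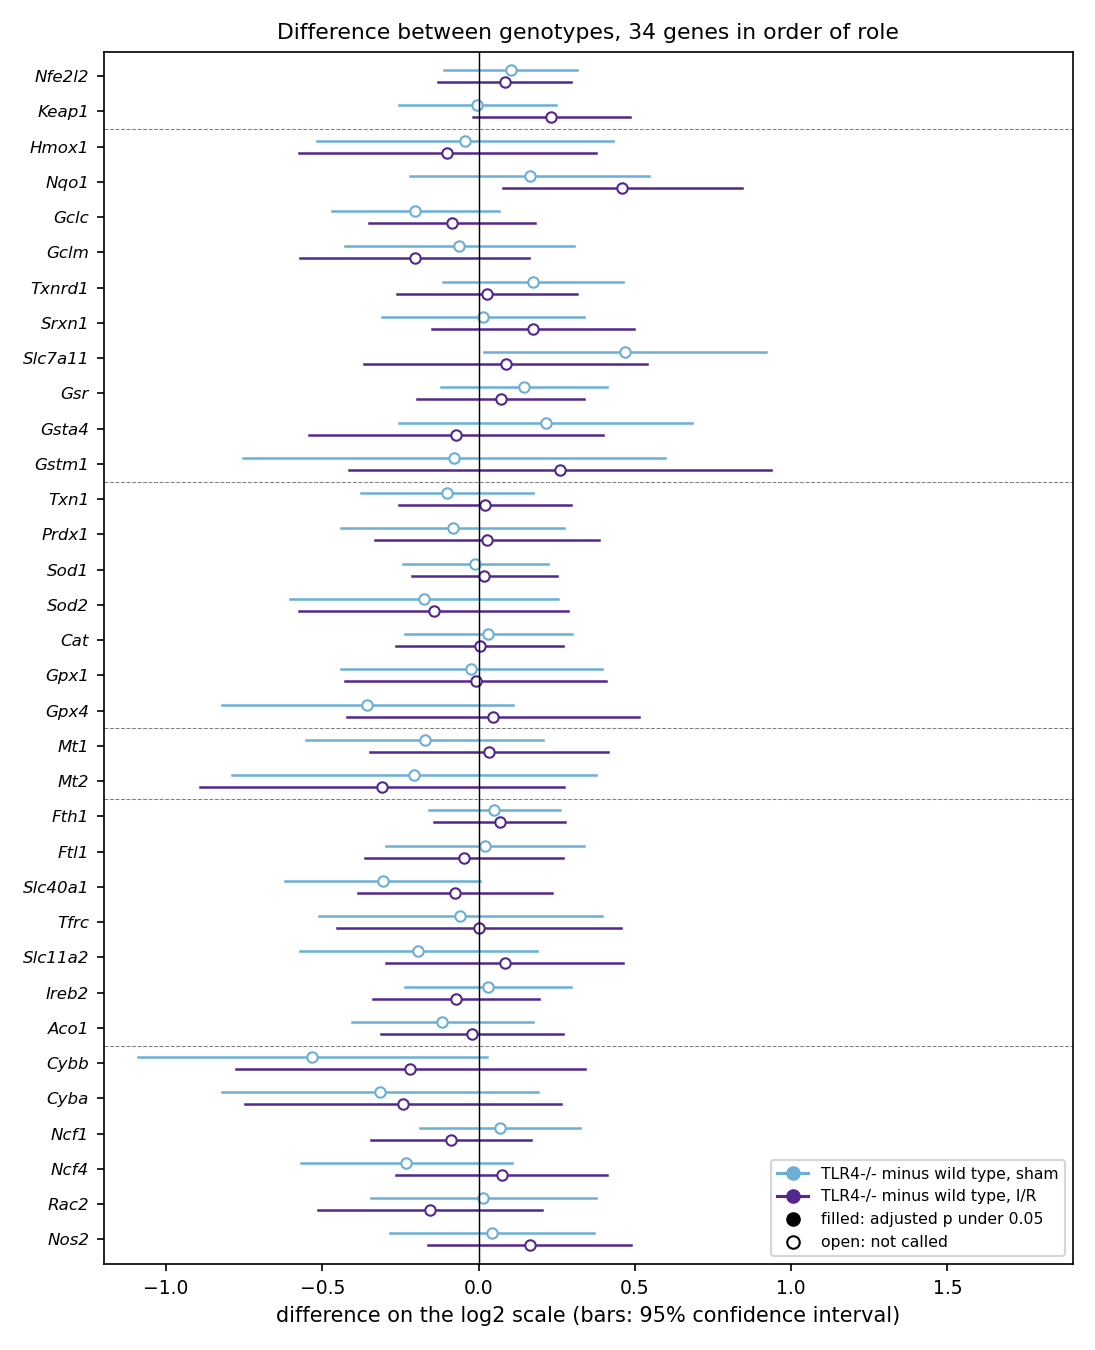
Difference between genotypes (TLR4-/- minus wild type, log2 scale) after sham and after I/R for the 34 genes, with 95% confidence intervals. All points are open, since none passed an adjusted p under 0.05, and nearly all intervals include 0, the exceptions being Slc7a11 after sham and Nqo1 after I/R.

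Other genes of the same pathways were counted from 4 lists. Of 38 other redox genes measured, 9 rose and 4 fell in wild type and 7 rose and 1 fell in TLR4-/-. Glrx, glutaredoxin, which removes glutathione from proteins, rose by 1.61 ± 0.12 (limma adjusted p = 8.24e-08) in wild type and by 1.64 ± 0.14 (adjusted p = 8.55e-07) in TLR4-/-. Prdx4, the peroxiredoxin of the endoplasmic reticulum, rose by 1.46 ± 0.16 and 1.65 ± 0.18. Ggct, an enzyme of glutathione breakdown, rose by 1.10 ± 0.22 and 0.97 ± 0.26. Gpx3, a secreted glutathione peroxidase, rose by 1.03 ± 0.21 and 1.04 ± 0.25. Selenow, a small selenoprotein, rose by 1.17 ± 0.27 in TLR4-/-, and its wild-type change was 0.69 ± 0.23 (adjusted p = 0.0723). Txnip, which binds and inhibits thioredoxin, fell in both (-0.68 ± 0.09 and -0.64 ± 0.10) and was singled out after its values were seen.

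Of 25 other genes of the NRF2 pathway and NADPH supply, 1 rose and none fell in wild type, and 1 rose and 1 fell in TLR4-/-. Named after their values were seen, the gene that rose in both was Maff, a small MAF partner of NRF2 (0.90 ± 0.14 and 0.61 ± 0.17), from a sham level near background, and the one that fell was Abcc1, an exporter of glutathione conjugates (-0.45 ± 0.13). Of 35 other iron and haem genes, 1 rose and 2 fell in each genotype. Slc39a14 (ZIP14), an importer of zinc and of iron not bound to transferrin, rose by 1.26 ± 0.19 in wild type (limma adjusted p = 0.000309) and 0.90 ± 0.22 in TLR4-/- (adjusted p = 0.0176). Trf, transferrin (-0.51 and -0.42), and Slc25a37, the mitochondrial iron importer (-0.55 and -0.56), fell in both and were likewise named after their values were seen.

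Of 27 other oxidase and nitric oxide genes, 3 rose and 2 fell in wild type and 1 rose and 2 fell in TLR4-/-. Gch1, which makes the tetrahydrobiopterin that nitric oxide synthases need, rose by 1.31 ± 0.19 (limma adjusted p = 0.000220) and 1.35 ± 0.22 (adjusted p = 0.000885), from sham means of 4.51 and 4.50 that are below the background percentile. Of the protein kinase C forms on the list, Prkca fell by 0.93 and 0.99 in wild type and TLR4-/-, and Prkcd fell by 0.35 and 0.41. Prkcb had changes above 0 that were not called in either genotype (0.26, adjusted p = 0.225, and 0.35, adjusted p = 0.170), and was called higher in the average over both (0.30 ± 0.09, adjusted p = 0.0333). In that average 3 genes of the list rose and 5 fell (29.6% of 27, beside 18.1% of all genes). Those that fell included Cybc1 (-0.45 ± 0.11, limma adjusted p = 0.00922), Noxo1 (-0.30 ± 0.09) and Noxa1 (-0.28 ± 0.09, not above background). Slc7a1, an arginine importer, rose in wild type by 0.47. Arg1, arginase, was called higher in wild type, with a sham mean of 4.33 below the background percentile. All of these but Gch1 were named after their values were seen. Without wild-type sham C and TLR4-/- I/R D, 7 other redox genes rose and 4 fell in wild type, and 6 rose and 2 fell in TLR4-/-. For the NRF2 pathway and NADPH supply 1 rose and 1 fell in wild type and 1 rose in TLR4-/-. For iron and haem 1 rose and 2 fell in wild type and 2 fell in TLR4-/-. For the oxidase list 2 rose and 1 fell in wild type, and 1 rose and 4 fell in TLR4-/-. The calls of Glrx, Prdx4, Txnip, Gch1 and Prkca in both genotypes held whichever single array was left out. So did the wild-type calls of Ggct, Gpx3, Maff, Slc39a14, Trf, Slc25a37 and Slc7a1, whose TLR4-/- calls, Slc7a1 having none, were each lost without at least 3 of the 6 arrays. Selenow lost its TLR4-/- call without I/R array D or sham array D, Abcc1 without any one of the 6 arrays, and Prkcd without any but I/R array D. In wild type, leaving out single arrays ended the Prkcd call for 6 of the 8 arrays (all but I/R B and sham A) and the Arg1 call for 5 (I/R A, C and D and sham B and D).

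The lists were not tested as sets. Their shares of called genes in wild type were 34.2% for other redox genes and 4% for the NRF2 pathway and NADPH supply. They were 8.57% for iron and haem and 18.5% for the oxidase list, beside the 9.78% given above. In TLR4-/- the shares were 21.05%, 8%, 8.57% and 11.1% in the same order, beside 8.17% of all genes.

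**Figure D5:**
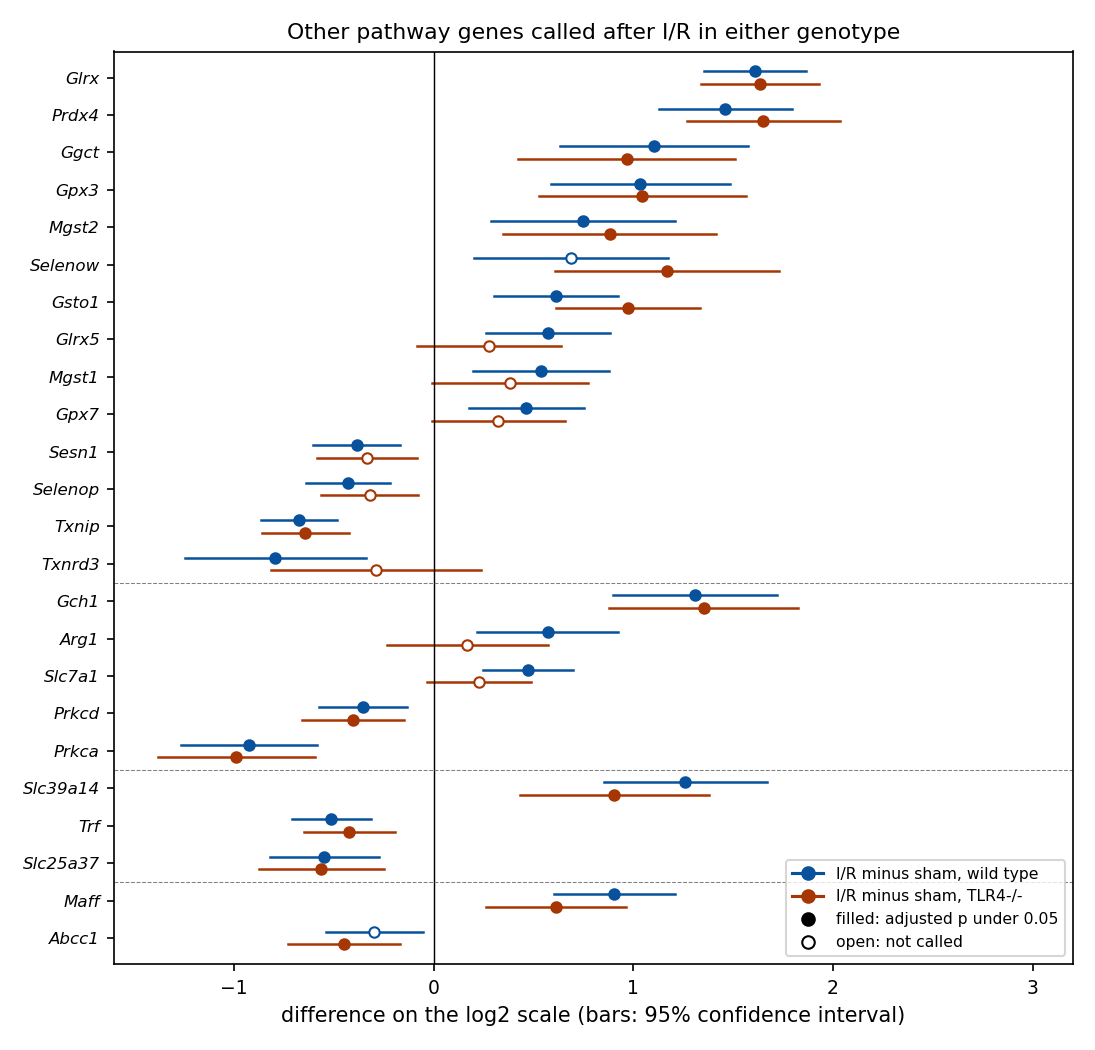
Change after I/R (log2 scale, with 95% confidence intervals) of the 24 genes from the other pathway lists that were called in either genotype, divided by list. From top to bottom the lists are other redox genes, oxidase and nitric oxide, iron and haem, and NRF2 pathway and NADPH supply. Glrx and Prdx4 lie farthest to the right, and each gene's 2 points fall on the same side of 0.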

How the data were processed

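The deposited values are log2 signals. The authors made them with RMA (package oligo, no version given), per the submitters' processing notes, a method that corrects background, equalises the arrays and summarises probes. Of 35556 rows, 21789 carried 1 gene symbol in the platform annotation. The row with the highest mean stood for each of 19938 genes. All 14 arrays entered a fit of 4 group means in limma 3.58.1 (R 4.3.3, lmFit and eBayes, two-sided), with Benjamini-Hochberg adjustment over all genes. The fit was tested on simulated data. Genes were named as follows: every listed gene was accounted for, called genes and Nfe2l2, Hmox1, Nqo1, Slc40a1, Fth1, Cybb and Nos2 were given array by array, and other pathway genes were named if called with a change of at least 1, at most 4 per list and comparison by smallest p, exceptions being marked. Members and lists were chosen with earlier results of these data known. Arrays were labelled with letters shared by the groups. Deviations of arrays with the same letter correlated at r between -0.0987 and 0.2809 over 18 pairs, so the letters were not taken as pairs. Alternatives were array centring, another row per gene, a filter on dim genes, array weights, trended and robust variance, the compared groups alone, the letter as a block, and leaving out each array.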

Additional observations from a re-analysis of the deposited data

Results flagged for a closer look

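In each group of 4 arrays, the gap of the highest or lowest array to its neighbour was compared with the range of the group for the 34 genes. Of 68 groups tested 3 passed Dixon's limit of 0.829, which chance passes for about 1 in 20. All 3 concern an array D that was the lowest of its group. For Rac2 in wild-type I/R the ratio was 0.892, with 10.24 on array D and 10.43 on the next. For Gclm in wild-type sham it was 0.892, with 6.79 against 6.83 in a group whose whole range is under 0.05. For Nqo1 in wild-type I/R it was 0.83, with 2.99 against 3.35, all below background.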

How the results depend on the processing

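For the 15 genes given array by array, 5 comparisons and a few further rows, 1215 values were computed under alternatives. Of these 1178 stayed on their side of the threshold, 37 lost a call, none gained one and no called value changed sign, while 72 values that were not called did. Of 18 calls, 10 held under every alternative. Over all 34 genes, 7 genes gained 11 calls under alternatives in the comparisons of I/R with sham, and the genotype tests gained none. In the average over both genotypes, Sod1, Txnrd1 and Slc7a11 were also called under some alternatives. The arrays behind each of the 37 losses and 11 gains stand in the report. With arrays centred on their medians, the count of lower genes was 1 in wild type and 0 in TLR4-/-. With single arrays left out it was 1 to 2 in wild type and 0 to 1 in TLR4-/-. The count of higher genes was 6 to 10 in wild type and 3 to 8 in TLR4-/-, lowest without TLR4-/- sham array A. With the letter as a replicate block, the Rac2 change in wild type was 0.52 with limma adjusted p = 0.0592, and no other of the 18 calls was lost. Dim genes are limited by background signal, since RMA gives no detection call.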
